A study of Sus scrofa with 11 samples.

Results

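ACKR1 and 8 adhesion molecules of leukocyte recruitment (SELE, SELP, SELPLG, ICAM1, ICAM3, VCAM1, L1CAM and PECAM1) were followed in full-thickness skin wounds of Yucatan minipigs. The 9 genes were picked by name from the 30376 genes in the deposited values, with earlier results of the same comparison known. All 9 had an FPKM (fragments scaled to gene length and library size, a level that can be compared between genes) of at least 0.5 in at least 4 wounds and entered the fit of 13956 genes. RNA came from 7 wounds of a diabetic female minipig and 4 wounds of a non-diabetic female minipig, made with a biopsy punch on the back, dressed in the same way and sampled on day 10. Diabetes had been induced with streptozotocin, a toxin of pancreatic beta cells, at 6 months of age, and insulin was given and then withdrawn before wounding. The age of the non-diabetic minipig was not given in the sources used here. Each group was thus the wounds of 1 animal, the spread within a group was the spread between wounds on that animal, and diabetes and animal cannot be told apart.

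Leukocytes leave the blood in steps, mostly through small veins. Selectins on activated endothelium catch carbohydrate-bearing proteins such as SELPLG on the leukocyte and let it roll, chemokines displayed on the vessel wall activate its integrins, and the integrins then bind ICAM1 and VCAM1 until the cell crosses at junctions that hold PECAM1. ACKR1, the Duffy antigen, is an atypical chemokine receptor that binds many inflammatory chemokines without G protein signalling. On venular endothelium it carries them to the luminal surface, and on red blood cells it takes them up from plasma. In whole tissue, fewer cells of a type and less RNA per cell cannot be told apart.

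ACKR1 was the member with the largest difference between the groups. It was higher in every diabetic wound than in every non-diabetic wound, whereas PECAM1, ICAM1 and SELP had overlapping levels with log2 differences close to 0. VCAM1 and L1CAM were also higher in every diabetic wound than in every non-diabetic wound, by less than ACKR1. A gene was called at an adjusted p under 0.05 (limma, Benjamini-Hochberg over all tested genes) together with an absolute log2 difference over 0.5, and by that rule ACKR1 and L1CAM were called higher and no member was called lower. The call thus held for 2 of 9 members, where 1.35% of all tested genes were called higher and 1.66% lower. Every diabetic wound lay above every non-diabetic wound in 3 of 9 members and in 2.69% of all tested genes. The members were selected on this contrast, so these shares are given as a description and their differences carry no p. The median log2 difference of the 9 members was 0.04, beside 0.01 over all tested genes.

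Between 28314785 and 40168372 reads per wound fell on genes. Diabetic replicate 4 and non-diabetic replicate 1 stood apart from the others on the first principal component, which held 44.5% of the variance. Their summed FPKM of 7 keratinocyte markers was 35.8 and 262, against 1526 to 6625 in the other wounds, and their summed neutrophil markers were 65.6 and 328, against 3825 to 12640. S100A8, S100A9 and S100A12 made up most of the neutrophil sum. Their means were 1753, 1905 and 2677 FPKM in diabetic and 2045, 2371 and 3382 FPKM in non-diabetic wounds. CSF3R on the same list was 3.70 to 11.06 FPKM in diabetic and 2.75 to 9.01 FPKM in non-diabetic wounds. MMP9 was 11.2 to 41.6 and 23.3 to 50.5 FPKM, and LTF 0.600 to 7.45 and 0.556 to 6.78 FPKM. The low sums thus describe mainly the S100 genes, and neutrophil number was not tested. Diabetic replicate 3 alone had skeletal muscle transcripts, with a summed FPKM of 1933 over 6 genes against 0.843 to 3.68 elsewhere. Between the groups, 0 of 6 neutrophil, 7 keratinocyte and 1 skeletal muscle genes tested were called (limma, 0 at an unadjusted p under 0.05, 0 with voom).

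**Figure D1:**
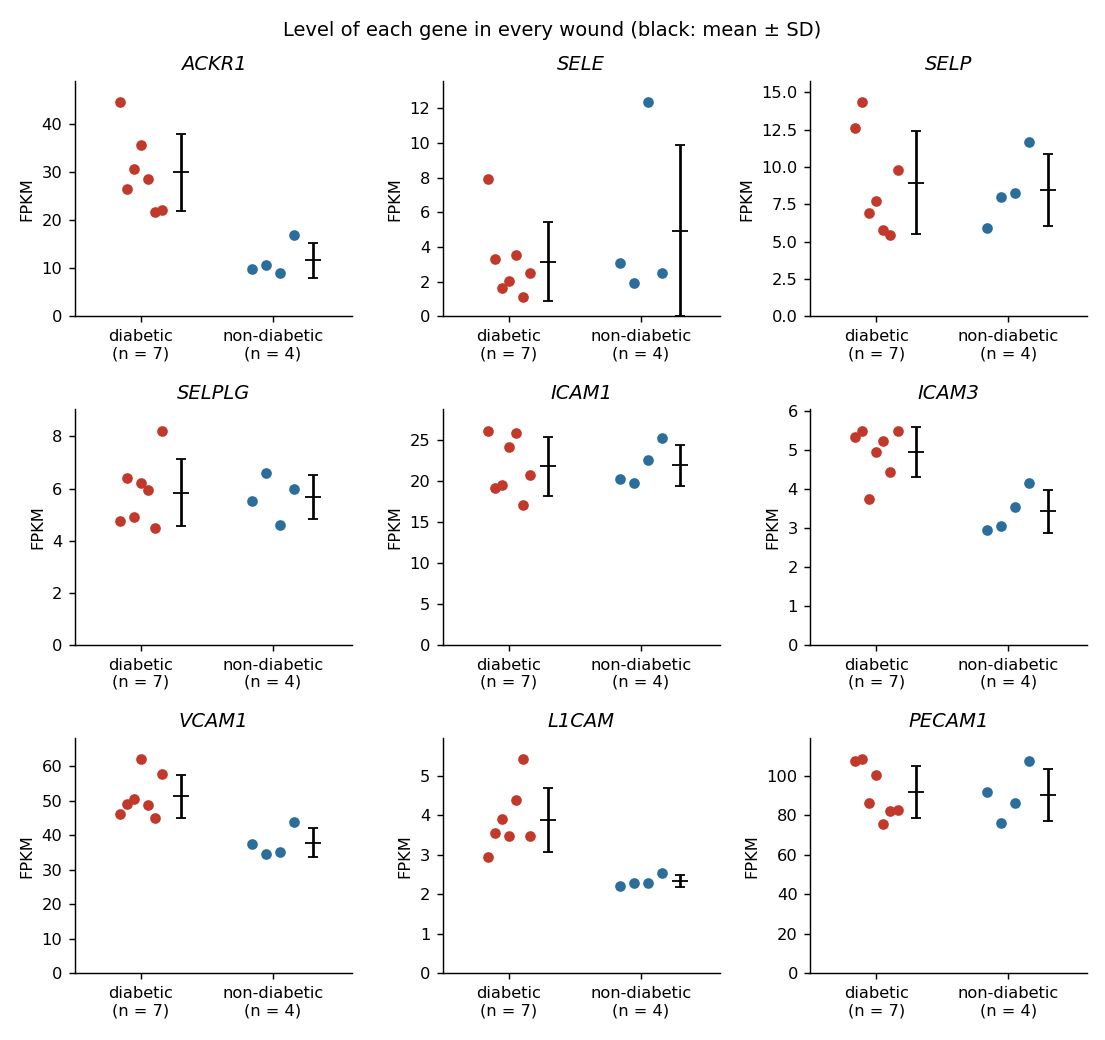
Level (FPKM, linear axis from 0) of the 9 genes in each of 7 diabetic (red) and 4 non-diabetic (blue) wounds, with the group mean ± SD in black. The groups do not overlap in ACKR1, VCAM1 and L1CAM, and SELE has a single high wound in each group.

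ACKR1 lay on chromosome 4 (91224089 to 91225610, minus strand, Sscrofa11.1), a short gene of 2 exons with 1107 exon bases, of which 1026 were coding. In the 7 diabetic wounds its lowest level was 21.7 FPKM, the median 28.5 and the highest 44.4. The 4 non-diabetic wounds had 9.94, 10.6, 9.03 and 16.8 FPKM. The lowest diabetic wound was therefore above the highest non-diabetic wound, and replicate 4 stood above the rest of the non-diabetic group. The means were 29.9 ± 8.01 FPKM (SD, n = 7) and 11.6 ± 3.53 FPKM (SD, n = 4), a ratio of 2.57. On the log2(FPKM + 0.5) scale the difference was 1.33 (standard error 0.21, 95% interval 0.86 to 1.79). These levels rested on 628 to 1755 reads per diabetic wound and 315 to 725 reads per non-diabetic wound.

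The difference in ACKR1 did not rest on 1 wound or on the wounds that stood apart. It ranged from 1.19 to 1.53 over 23 other settings and was called in 22 of them, the exception being the fit with the replicate number as a block. Library names in the labels carry a letter, L or R, whose meaning is not stated. Among L libraries ACKR1 was 26.4 to 44.4 FPKM in 3 diabetic and 9.94 to 10.6 FPKM in 2 non-diabetic wounds (log2 difference 1.63). Among R libraries it was 21.7 to 35.5 FPKM in 4 diabetic and 9.03 to 16.8 FPKM in 2 non-diabetic wounds (log2 difference 1.07). The groups were separate within each letter.

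ACKR1 also differed from PECAM1, the pan-endothelial junction protein, in proportion. Its level was 24.3% to 41.2% of that of PECAM1 in diabetic wounds and 10.5% to 15.6% in non-diabetic wounds. PECAM1 itself ranged from 75.3 to 108 FPKM in diabetic and from 76.2 to 107 FPKM in non-diabetic wounds. Against the summed FPKM of 13 endothelial identity genes, a list without PECAM1, ACKR1 stood at 11.8% ± 3.42 (SD, n = 7) and 4.55% ± 1.19 (SD, n = 4). That sum was 238 to 291 FPKM in diabetic and 238 to 269 FPKM in non-diabetic wounds, and 0 of its 13 genes were called (limma, 1 at an unadjusted p under 0.05, 0 with voom, median log2 difference 0.06). The summed levels of general endothelial transcripts were alike in the groups, so these ratios restate the difference in ACKR1. The part of endothelial amount in that difference was not tested.

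**Figure D2:**
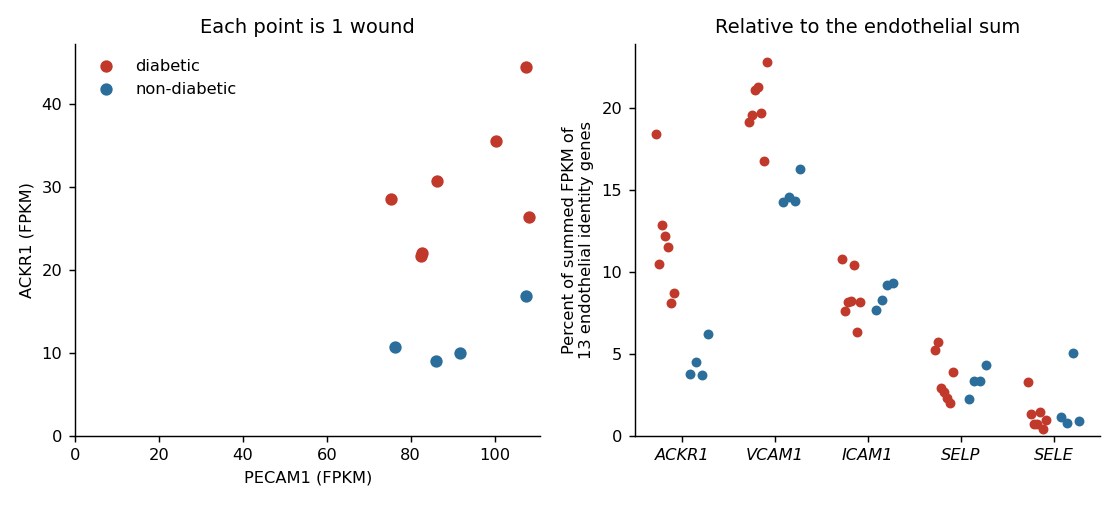
Left, ACKR1 against PECAM1 (both FPKM, axes from 0), with 1 point per wound. Right, the levels of 5 genes as a percent of the summed FPKM of 13 endothelial identity genes (red diabetic, blue non-diabetic). ACKR1 and VCAM1 are separate between the groups, and ICAM1, SELP and SELE overlap.

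Markers of vessel type did not move as whole lists. The 4 venous genes tested had a median log2 difference of 0.04 with 3 above 0. Of these, PLVAP, the diaphragm protein of fenestrated and venular endothelium, was called higher with 109 ± 14.7 against 75.3 ± 4.54 FPKM (SD, n = 7 and 4, log2 difference 0.52, adjusted p = 0.0294, limma). PLVAP kept its call in 10 of 23 settings and lost it without diabetic replicate 3, 4, 5, 6 or 7 or any 1 non-diabetic wound (log2 difference 0.49 to 0.56). The call was also lost with quantile normalization (0.39), centring on library medians (0.53), the replicate block (0.45) and without both wounds that stood apart (0.53). The 6 arterial genes tested had a median log2 difference of -0.28 with 2 above 0. Of these, GJA4, a gap junction connexin of arterial endothelium, was called higher with 27.7 ± 7.30 against 13.7 ± 2.13 FPKM (SD, n = 7 and 4, log2 difference 0.96, adjusted p = 0.0176, limma). GJA4 was not called without non-diabetic replicate 2 or 3 (log2 difference 0.89 and 0.92). DLL4, a Notch ligand of arterial and sprouting endothelium, was lower in every diabetic wound and not called (2.38 to 3.75 against 3.98 to 5.58 FPKM, log2 difference -0.57, adjusted p = 0.0506, limma). The 6 mural cell genes tested had a median log2 difference of 0.27 with 5 above 0. The exception, RGS5, a regulator of G protein signalling in pericytes, was called lower, with 38.6 ± 9.81 against 70.5 ± 14.3 FPKM (SD, n = 7 and 4, log2 difference -0.87, adjusted p = 0.035, limma), and it kept the call in 11 of 23 settings. RGS5 was not called without diabetic replicate 3, 4, 5, 6 or 7 or non-diabetic replicate 1, 3 or 4 (log2 difference -0.92 to -0.78). The same held with no filter on low values, the replicate block, the letter covariate and without both wounds that stood apart (-0.87 to -0.77). Of 4 lymphatic genes 0 were called (limma, 1 at an unadjusted p under 0.05, 0 with voom). The summed venous markers were 114 to 174 FPKM in diabetic and 108 to 138 FPKM in non-diabetic wounds, the arterial ones 43.7 to 68.2 and 36.8 to 45.7 FPKM, and PLVAP and GJA4 were the most abundant genes of these sums. The part of vessel type in the ACKR1 difference was not tested.

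Red cell precursors express ACKR1 as well. Of 9 erythrocyte markers, 7 were under 0.5 FPKM in every wound, among them ALAS2 and SLC4A1. The sum over the list was 1.25 to 19.9 FPKM in diabetic and 19.6 to 43.6 FPKM in non-diabetic wounds, which overlapped through diabetic replicate 6. The globin gene HBB was the most abundant of the list by mean (0.113 to 18.7 against 18.3 to 42.3 FPKM, log2 difference -2.85, adjusted p = 0.0581 with limma, called lower with voom). The part of red cells in the ACKR1 difference was not tested.

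The other atypical receptors and the ligands of ACKR1 were not called. The 4 atypical chemokine receptors tested (0 called with limma or voom, 1 at an unadjusted p under 0.05) had a median log2 difference of 0.08 with 2 above 0, and the most abundant, ACKR3, a scavenger of CXCL12, had 19.0 ± 7.44 and 13.4 ± 4.93 FPKM (SD, n = 7 and 4, log2 difference 0.48, adjusted p = 0.441, limma). The gene at an unadjusted p under 0.05 was ACKR4. It was lower in diabetic wounds, with 9.49 ± 4.81 and 17.0 ± 6.12 FPKM (SD, n = 7 and 4, log2 difference -0.87, adjusted p = 0.223, limma). Of 15 chemokines that ACKR1 binds, 10 were found by symbol and 8 were tested. Of the 8, 0 were called with limma or voom and 0 had an unadjusted p under 0.05, 4 were above 0, and their median log2 difference was 0.04. CCL2, which attracts monocytes and was the most abundant, had 71.8 ± 21.8 and 74.1 ± 50.7 FPKM (SD, n = 7 and 4, log2 difference 0.09, adjusted p = 0.922, limma). Receptor and ligands thus differed in their calls, and the difference between them was not tested.

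The selectins showed no such order between the groups. SELP, which endothelium and platelets store in granules and bring to the surface within minutes, lies on chromosome 4 at 81376804 to 81401240. It had a lowest level of 5.44, a median of 7.73 and a highest level of 14.3 FPKM in diabetic wounds and 5.89, 7.99, 8.26 and 11.7 FPKM in non-diabetic wounds. The groups overlapped over nearly their whole ranges, with a log2 difference of 0.04 (standard error 0.27, 95% interval -0.55 to 0.63). Of 8 platelet markers, 2 passed the filter and 0 were called (limma, 0 at an unadjusted p under 0.05, 0 with voom), and the summed markers were 2.92 to 5.51 FPKM in diabetic and 3.17 to 4.15 FPKM in non-diabetic wounds.

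SELE, the selectin that endothelium makes mainly on activation by cytokines, lies 77.1 kb before SELP on chromosome 4 (81289061 to 81299657). It was the most variable member. Diabetic wounds had a lowest level of 1.13, a median of 2.48 and a highest level of 7.93 FPKM. The non-diabetic wounds had 3.06, 1.91, 12.3 and 2.51 FPKM. The level in non-diabetic replicate 3 was above that in every diabetic wound, and the remaining non-diabetic wounds lay within the diabetic range. The coefficient of variation was 72.0% in diabetic and 99.8% in non-diabetic wounds, against 26.8% and 30.4% in ACKR1. The log2 difference of -0.41 had an interval from -1.50 to 0.67 and reached 0.12 without non-diabetic replicate 3, so its direction rested on that wound.

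SELE was read beside the genes of the cytokine response that induces it, a comparison of values chosen after they were seen. The list of 13 NF-kB inducers and feedback genes summed to 338 FPKM in diabetic replicate 1, 310 FPKM in diabetic replicate 5 and 265 FPKM in non-diabetic replicate 3. In the other 8 wounds the sum was 110 to 158 FPKM. SELE was 7.93, 3.55 and 12.3 FPKM in those 3 wounds and 1.13 to 3.31 FPKM in the others. The same 3 wounds had the highest IL6, at 67.5, 61.8 and 49.3 FPKM, against 3.25 to 20.2 FPKM in the others, and the highest TNFAIP3, an inhibitor that NF-kB induces, at 8.16, 5.91 and 9.64 FPKM. IL6 and TNFAIP3 are part of the sum that set these wounds apart, so their levels are not a separate observation. The high wounds fell in both groups. ACKR1 was 44.4, 28.5 and 9.03 FPKM in the same wounds. Non-diabetic replicate 3, with the most SELE, thus had the least ACKR1. Diabetic replicate 1, with the most SELE of its group and the highest sum, had the most ACKR1. Of the 12 list genes tested, 0 were called between the groups (limma, 0 at an unadjusted p under 0.05, 0 with voom, median log2 difference 0.12), and NFKBIA, the inhibitor of NF-kB and the most abundant of them, had 75.2 ± 28.3 and 63.2 ± 29.7 FPKM (SD, n = 7 and 4, adjusted p = 0.682, limma).

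**Figure D3:**
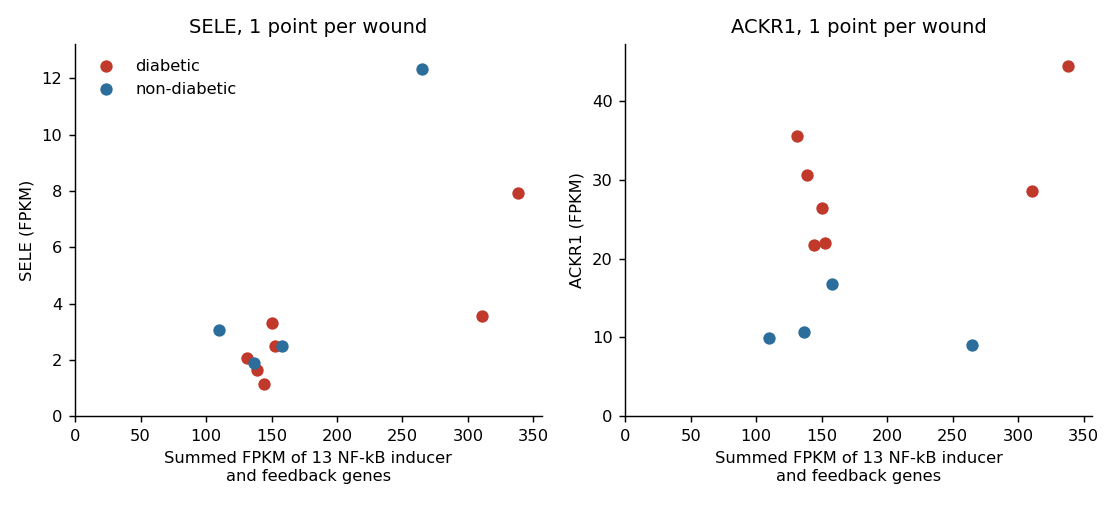
SELE (left) and ACKR1 (right) in FPKM against the summed FPKM of 13 NF-kB inducer and feedback genes, with 1 point per wound (red diabetic, blue non-diabetic). The 3 wounds with the highest sums hold the highest 3 levels of SELE, in both groups, while ACKR1 is higher in every diabetic wound than in every non-diabetic wound.

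SELPLG, the mucin-like ligand of the selectins on leukocytes, lies on chromosome 14 (42158694 to 42178044). Its lowest, median and highest levels were 4.50, 5.95 and 8.21 FPKM in diabetic wounds, and the non-diabetic wounds had 5.52, 6.61, 4.61 and 5.99 FPKM. The groups overlapped (log2 difference 0.02, standard error 0.16, 95% interval -0.32 to 0.37). The 14 tested genes that build or carry selectin ligands had a median log2 difference of -0.06 with 0 called (limma, 4 at an unadjusted p under 0.05, 0 with voom). CD44, a hyaluronan receptor that can carry selectin ligands and was the most abundant of them, had 32.0 ± 7.88 and 32.8 ± 13.6 FPKM (SD, n = 7 and 4, log2 difference 0.03, adjusted p = 0.97, limma). The 9 pan-leukocyte markers summed to 219 to 297 FPKM in diabetic and 208 to 265 FPKM in non-diabetic wounds, and 0 of them were called (limma, 1 at an unadjusted p under 0.05, 0 with voom, median log2 difference 0.13).

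ICAM1 and VCAM1 are the endothelial counter-receptors of leukocyte integrins and both can be induced through NF-kB. ICAM1, on chromosome 2 (69097136 to 69107722), had a lowest level of 17.1, a median of 20.7 and a highest level of 26.1 FPKM in diabetic wounds and 20.2, 19.8, 22.5 and 25.2 FPKM in non-diabetic wounds. The diabetic range enclosed the non-diabetic one, and the log2 difference was -0.02 (standard error 0.13, 95% interval -0.30 to 0.26). VCAM1, on chromosome 4 (117496914 to 117511211, minus strand), had a lowest level of 45.0, a median of 49.1 and a highest level of 62.0 FPKM in diabetic wounds. The non-diabetic wounds had 37.5, 34.7, 35.2 and 43.8 FPKM, all below the lowest diabetic wound. The means were 51.3 ± 6.23 FPKM (SD, n = 7) and 37.8 ± 4.17 FPKM (SD, n = 4), with a log2 difference of 0.43 (standard error 0.11, 95% interval 0.20 to 0.66), which was under the fold threshold. VCAM1 was 16.8% to 22.8% of the endothelial sum in diabetic and 14.3% to 16.3% in non-diabetic wounds, and its ratio to PECAM1 overlapped between the groups. Within letters the log2 difference of VCAM1 was 0.42 among L and 0.43 among R libraries. It was above 0 in both letters for ICAM3 and L1CAM as well. The other members changed sign between L and R libraries: SELE (0.49 and -1.22), SELP (0.62 and -0.46), PECAM1 (0.26 and -0.18), ICAM1 (0.09 and -0.13) and SELPLG (-0.17 and 0.19). Their small differences over all wounds were thus not uniform across letters, and each letter held few wounds.

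The 250 bases before the annotated start are shown for ICAM1 and VCAM1, the 2 inducible integrin ligands that differed in how the groups stood. They were read from the RefSeq assembly Sscrofa11.1 in the direction of the gene, at chr2:69096886-69097135 (plus strand) and chr4:117511212-117511461 (minus strand). Capitals mark matches, on either strand, to the NF-kappaB consensus, the TATA box motif TATAAA and the STAT motif TTCCNGGAA.
ICAM1: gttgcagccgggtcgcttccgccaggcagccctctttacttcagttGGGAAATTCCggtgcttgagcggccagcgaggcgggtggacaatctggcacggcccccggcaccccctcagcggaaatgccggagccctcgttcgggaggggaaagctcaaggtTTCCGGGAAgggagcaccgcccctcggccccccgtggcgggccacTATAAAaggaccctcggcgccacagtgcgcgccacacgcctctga
VCAM1: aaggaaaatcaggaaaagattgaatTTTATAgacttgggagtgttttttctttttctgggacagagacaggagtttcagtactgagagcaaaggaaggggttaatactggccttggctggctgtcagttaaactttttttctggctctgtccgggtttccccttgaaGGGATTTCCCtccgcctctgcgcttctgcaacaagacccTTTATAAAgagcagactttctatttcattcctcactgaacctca
The ICAM1 window held the NF-kappaB consensus at 204 to 195 bases before the start, TTCCNGGAA at 90 to 82 and TATAAA at 45 to 40. The VCAM1 window held the NF-kappaB consensus at 83 to 74 bases before the start and TATAAA at 42 to 37, which overlapped a match on the other strand at 44 to 39, and a further match on the other strand at 225 to 220. Of 19561 windows of the same length before protein-coding genes, 14% held the NF-kappaB consensus, 9.76% TATAAA and 0.767% TTCCNGGAA. ICAM1 and VCAM1 thus shared 2 of these motifs and not their order between the groups. The windows of SELE at its annotated start, SELP, ICAM3, L1CAM and PECAM1 held none of the 3 motifs, and that of SELPLG held the NF-kappaB consensus. A second transcript model of SELE starts 112 bases further on, with TATAAA in the window before it.

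Among the integrins that bind ICAM1 and VCAM1, 7 genes were tested. ITGAM, whose product pairs with that of ITGB2 on neutrophils and macrophages and binds ICAM1, was the gene called, with 2.56 to 6.34 FPKM in diabetic and 1.11 to 1.35 FPKM in non-diabetic wounds (log2 difference 1.22, standard error 0.19, adjusted p = 0.00585, limma). The list had a median log2 difference of 0.33, with 6 of 7 above 0, where 52.3% of all tested genes were above 0. At an unadjusted p under 0.05 (limma) were 4 of the 7, of which 3 were higher and 1 lower. With voom ITGAM was again the 1 gene called. ITGB1, the beta chain of many integrins and the most abundant, had 85.8 ± 10.5 and 112 ± 16.1 FPKM (SD, n = 7 and 4, log2 difference -0.38, adjusted p = 0.107, limma). Of 8 genes that switch integrins on, 0 were called (limma, 3 at an unadjusted p under 0.05, 0 with voom), 7 were above 0 and the median log2 difference was 0.19. The most abundant, the small GTPase RAP1B, had 55.4 ± 3.74 and 50.5 ± 2.60 FPKM (SD, n = 7 and 4, log2 difference 0.13, adjusted p = 0.384, limma).

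ICAM3, an integrin ligand carried by leukocytes rather than resting endothelium, lies 35.3 kb from ICAM1 on chromosome 2 (69143063 to 69150221, minus strand). Its lowest, median and highest levels were 3.74, 5.23 and 5.49 FPKM in diabetic wounds, and the non-diabetic wounds had 2.95, 3.06, 3.54 and 4.16 FPKM. The groups overlapped through diabetic replicate 3, the lowest of its group. The log2 difference was 0.47 (standard error 0.12, 95% interval 0.20 to 0.74), and ICAM3 was called without diabetic replicate 3 and in no other setting. As a share of the pan-leukocyte sum it had a median of 1.90% (range 1.67% to 2.2%) in diabetic and 1.45% (range 1.19% to 1.70%) in non-diabetic wounds, with overlap.

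L1CAM, on the X chromosome (124595649 to 124618292, minus strand), is an adhesion molecule of nerve that is also found on some endothelial and immune cells. It was a low-level transcript, with a lowest level of 2.94, a median of 3.55 and a highest level of 5.42 FPKM in diabetic wounds and 2.21, 2.28, 2.28 and 2.55 FPKM in non-diabetic wounds. The groups were separate, the non-diabetic wounds lay close together, and the log2 difference was 0.61 (standard error 0.13, 95% interval 0.32 to 0.91). L1CAM kept its call in 14 of 23 settings. It was not called in the fit with the replicate block, without diabetic replicate 3, 5 or 7, without any 1 of the 4 non-diabetic wounds, or without both wounds that stood apart, although its log2 difference stayed between 0.48 and 0.70. The 9 Schwann cell and nerve markers summed to 18.8 to 34.1 FPKM in diabetic and 17.2 to 34.9 FPKM in non-diabetic wounds, and 0 of the 5 tested were called (limma, 1 at an unadjusted p under 0.05, 0 with voom, median log2 difference 0.02). The sum overlapped where L1CAM did not. Other immunoglobulin-type adhesion molecules gave 0 calls among 7 tested (limma, 1 at an unadjusted p under 0.05, 0 with voom, median log2 difference -0.07), and BCAM, a laminin receptor and the most abundant, had 40.7 ± 9.41 and 43.7 ± 14.4 FPKM (SD, n = 7 and 4, adjusted p = 0.91, limma).

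PECAM1, on chromosome 12 (14667643 to 14723296), was the most abundant member, with a lowest level of 75.3, a median of 86.2 and a highest level of 108 FPKM in diabetic wounds and 91.9, 76.2, 86.0 and 107 FPKM in non-diabetic wounds. The groups overlapped, and the log2 difference was 0.02 (standard error 0.13, 95% interval -0.26 to 0.30). The 12 tested genes of endothelial junctions and transmigration had a median log2 difference of -0.03 with 0 called (limma, 0 at an unadjusted p under 0.05, 0 with voom). CD99, which works with PECAM1 in leukocyte passage and was the most abundant, had 125 ± 35.9 and 91.1 ± 15.7 FPKM (SD, n = 7 and 4, log2 difference 0.41, adjusted p = 0.39, limma). The 4 proteases that shed adhesion molecules had a median log2 difference of -0.37 with 0 called (limma, 0 at an unadjusted p under 0.05, 0 with voom), and the membrane metalloproteinase MMP14, the most abundant, had 422 ± 139 and 628 ± 198 FPKM (SD, n = 7 and 4, adjusted p = 0.306, limma). Over all pathway lists, 1 of 76 tested genes was called higher and 0 lower with limma and with voom. At an unadjusted p under 0.05 (limma) there were 7 higher and 6 lower. The share of all tested genes at that unadjusted threshold was not computed, so the unadjusted counts of the lists are a description only. With limma, 1.35% of all tested genes were called higher and 1.66% lower, so 1 call among 76 was near the share over all genes.

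**Figure D4:**
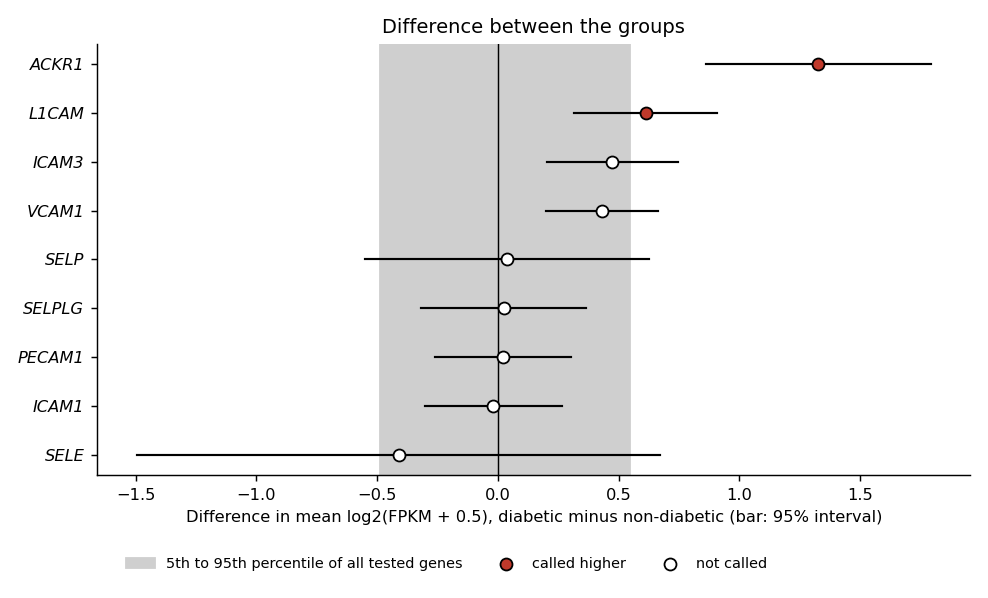
Difference in mean log2(FPKM + 0.5) between diabetic and non-diabetic wounds for the 9 genes, with 95% intervals from limma (red called higher, white not called). The grey band spans the 5th to 95th percentile of all tested genes (-0.49 to 0.55), and ACKR1 and L1CAM lie beyond it.

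**Figure D5:**
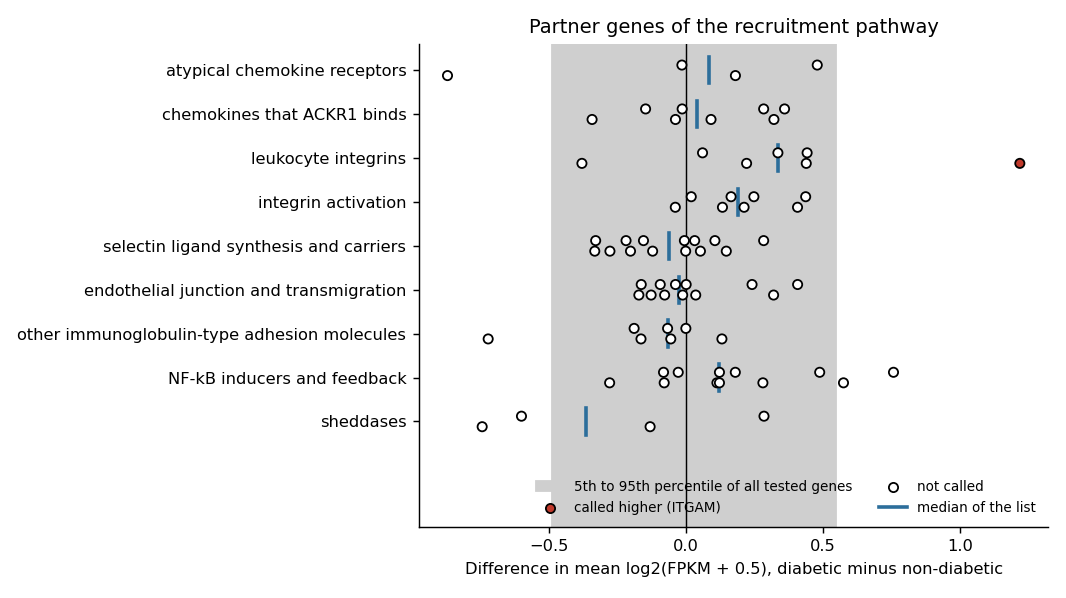
Difference in mean log2(FPKM + 0.5) between diabetic and non-diabetic wounds for the tested genes of 9 partner lists (circles), with the list median as a blue line and the same grey band. ITGAM, at 1.22, is the 1 gene called.

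By level, PECAM1, VCAM1, ACKR1 and ICAM1 led the order in diabetic wounds, followed by SELP, SELPLG, ICAM3, L1CAM and SELE. In non-diabetic wounds the mean of ICAM1 stood above that of ACKR1, and the mean of SELE above those of ICAM3 and L1CAM. The place of SELE rested on non-diabetic replicate 3, since its median of 2.78 FPKM was below that of ICAM3 at 3.30 FPKM. PECAM1 and VCAM1 did not overlap in either group. ACKR1 overlapped ICAM1 in diabetic wounds and lay wholly below it in non-diabetic wounds, where it overlapped SELP. From SELP downward, neighbours in the order overlapped, except that ICAM3 lay above L1CAM without overlap in non-diabetic wounds. The level of ACKR1 exceeded that of 87.8% of tested genes in diabetic and 70.9% in non-diabetic wounds.

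Among the 7 diabetic wounds ACKR1 was compared with the 8 other members and each of the 9 members with the summed endothelial and leukocyte markers, which gave 8 and 18 relations (26 in all) on log2(FPKM + 0.5), tested by two-sided exact permutation over all pairings with Benjamini-Hochberg adjustment. None passed after adjustment for Pearson's r or Spearman's rho, while 2 passed unadjusted for r and 1 for rho. ACKR1 had its highest r with ICAM1 (r = 0.73, exact permutation p = 0.0621, adjusted 0.438, rho = 0.75, p = 0.0663, adjusted 0.862), and r was 0.40 without diabetic replicates 1 and 6, the wounds farthest from the median of ACKR1. With SELE the r of 0.66 (exact permutation p = 0.101, adjusted 0.452, rho = 0.46, p = 0.302, adjusted 0.905) became -0.40 without those wounds, and with L1CAM the r of -0.66 (exact permutation p = 0.104, adjusted 0.452, rho = -0.54, p = 0.236, adjusted 0.905) became 0.14, so both rested on them. The r of ACKR1 with the endothelial sum was -0.10 (exact permutation p = 0.832, adjusted 0.956, rho = -0.39, p = 0.396, adjusted 0.905) and with the leukocyte sum -0.13 (exact permutation p = 0.774, adjusted 0.956, rho = 0.04, p = 0.963, adjusted 0.963). SELPLG had the highest r with the leukocyte sum (r = 0.86, exact permutation p = 0.0125, adjusted 0.325, rho = 0.79, p = 0.048, adjusted 0.862), with an r of 0.87 without diabetic replicates 6 and 7. ICAM3 had an r of 0.74 with the leukocyte sum (exact permutation p = 0.0464, adjusted 0.438, rho = 0.61, p = 0.167, adjusted 0.905), which was -0.07 without diabetic replicates 3 and 6.

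The tested genes most like ACKR1 in how they varied among wounds, once each group's mean was removed, were TRNAS-AGA (r = 0.98), GUCY1A3 (r = 0.93), MS4A7 (r = 0.92), SEMA6A (r = 0.92), RAP1B (r = 0.92), LOC102162669 (r = 0.90), NSMCE1 (r = 0.89) and ERO1B (r = 0.89), over 11 wounds. The transfer RNA gene TRNAS-AGA rested on 0 to 8 reads per wound and LOC102162669 on 1 to 59. None of the 8 was called with limma. The genes most like L1CAM were TULP1 (r = 0.94), FEZ1 (r = 0.93), PKIB (r = 0.91), HBB (r = 0.90) and GPC1 (r = 0.88). Of these 0 were called with limma, and HBB was called lower with voom. These are the highest values among 13956 genes over few wounds that share an animal, and they are given as a description.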

How the data were processed

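RNA was sequenced from 7 diabetic and 4 non-diabetic wounds, 1 library per wound, grouped by the labels. Per the study's methods, the authors used fastp for trimming, HISAT2 (2.2.1) for mapping to Sscrofa11.1, StringTie (2.2.3) for assembly and featureCounts (2.0.6) for counting, and they deposited FPKM. Whole reads were recovered from FPKM and gene length (100.0% within 0.05 reads). The libraries were directional. Whether counting used strand is not given in the sources used here, and a gene overlapping a member could share its reads.

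Genes that reached 0.5 FPKM in 4 or more libraries (13956) were fitted on log2(FPKM + 0.5) with limma 3.58.1 (eBayes with trend, R 4.3.3). limma on log2 FPKM, the deposited unit, stood in for the authors' count test, and voom on the recovered reads was run as an alternative. Fold changes on this scale understate low genes. Correlations and figures used Python 3.11.15, SciPy 1.17.1 and matplotlib 3.10.9. The fit was tested on simulated data.

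The members and the 21 lists (12 of markers, 9 of pathway partners) were chosen with earlier results of these data known. The genes named are the 9 members, every called gene and the most abundant tested gene of each pathway list, called marker genes, and the 8 and 5 genes most like ACKR1 and L1CAM. DLL4, HBB, ALAS2, SLC4A1, IL6, TNFAIP3, ACKR4 and the 6 neutrophil genes tested stand outside this rule and were added once their values were known. The alternatives varied pseudocount, filter, scaling, spread estimate, weights, replicate block, letter covariate, wounds and use of voom on recovered reads. Same-numbered wounds did not deviate together (correlations -0.267, 0.215, 0.0678 and -0.483), so the numbers pair nothing. Some items are not reported here.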

Additional observations from a re-analysis of the deposited data

Results flagged for a closer look

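Of 18 groups examined (9 genes in each of 2 groups), 2 held a wound whose gap to its neighbour was large against the range of the group. Chance gives about 1 in 20 groups if levels are normally distributed. The gaps were taken on FPKM rather than the log scale of the fit, so both flags may depend on the scale. Both were high levels of SELE, at 7.93 FPKM in diabetic replicate 1 (gap 0.644 of the range) and at 12.3 FPKM in non-diabetic replicate 3 (gap 0.889 of the range). These wounds also had summed NF-kB inducer and feedback genes of 338 and 265 FPKM, and the part of these genes in the SELE levels was not tested.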

How the results depend on the processing

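The count of members called higher was 2, and it became 0 in the fit with the replicate block, where diabetic replicates 5, 6 and 7 have no partner number and add nothing, and 1 without both wounds that stood apart. Leaving out 1 wound at a time gave 1 to 2. ACKR1 stayed called in all of these except the replicate block (log2 difference 1.53) and L1CAM was the member lost. Without diabetic replicate 3 the count stayed at 2 because ICAM3 took the place of L1CAM. The 1 called pathway gene, ITGAM, became 0 under the replicate block (log2 difference 1.32) and 2 genes were called with library weights. Over all genes the replicate block left 11 called higher and 5 lower, against 188 and 231, library weights gave 406 and 416, and leaving out the wounds that stood apart gave 106 and 81. The correlations that passed after adjustment stayed at 0 under 10 alternatives in both families. The cause of these shifts was not tested.

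Genes near 0 changed sign without being called. CCL2 took log2 differences of -0.036 with quantile normalization, -0.014 with the replicate block and -0.076 without both wounds that stood apart. CD44 took -0.076, -0.11 and -0.15 under these settings and -0.12 with library weights, which also gave BCAM 0.033. Leaving out 1 wound at a time gave -0.07 to 0.49 for CCL2, -0.29 to 0.25 for CD44 and -0.29 to 0.10 for BCAM. GJA4 was not called under the replicate block or without non-diabetic replicate 2 or 3, with log2 differences of 0.86 to 1.05 over all settings. With 1 animal per group and FPKM as the unit, small differences such as that of SELP, with an interval from -0.55 to 0.63, could not be resolved.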
